A study of Rattus norvegicus with 9 samples.

Results

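Nuclear serine tRNAs gave 12 of the 192 distinct tRNA-derived fragments (tRFs) in the deposited comparison of islets from rats exposed to a low-protein (LP) or a chow (CD) diet. They are all the sequences that the table assigns to a host named tRNA-Ser, and they filled 15 of its 255 rows. Of these tRFs, 10 came from tRNA-Ser-GCT and 2 were shared by tRNA-Ser-CGA and tRNA-Ser-TGA. The table lists only tRFs that the authors had called as changed between these same animals, so the directions below describe a selected set and are not independent evidence of a change. The islets came from 22-day-old male Sprague Dawley rats, and it was the mothers that were fed the diets, with 5.3% protein for LP (n = 4 rats) or 16.8% protein for CD (n = 5 rats), during pregnancy and lactation. The pretreatment of the RNA strips amino acids and cyclic phosphates from 3' ends, phosphorylates 5' ends and removes 3 kinds of base methylation, so the state of the ends in the tissue was not kept. Whether littermates were among the rats is not stated. Whole islets mix several cell types, so fewer cells of a type and less RNA per cell cannot be told apart, and the islet label could not be checked against marker genes, since the table holds tRFs only.

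A tRNA carries an amino acid on the last base of its CCA end, which is added after transcription, and reads a codon with its anticodon. Serine tRNAs, like leucine tRNAs, have a long variable arm between the anticodon stem and the T arm, and seryl-tRNA synthetase recognises its tRNAs by that arm rather than by the anticodon. tRNA-Ser-GCT reads the serine codons that begin with AG. Fragments can come from cuts in the anticodon loop, for which angiogenin is the known enzyme in stressed mammalian cells, or from cuts elsewhere. Which enzyme made the fragments described here was not tested.

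All 12 serine tRFs lay in the 3' part of the tRNA, and where a fragment began and ended went together with its direction. Names give the host and the number of nucleotides (nt), and letters separate sequences alike in both. The sequences below were chosen because they show each kind of start and end. They run 5' to 3', and capitals mark the anticodon, the T loop (TTCGAAT, whole or in part) and the bases of the CCA end.
tRNA-Ser-GCT 50: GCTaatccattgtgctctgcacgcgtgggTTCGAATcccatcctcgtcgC
tRNA-Ser-GCT 51a: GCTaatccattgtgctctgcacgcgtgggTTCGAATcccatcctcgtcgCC
tRNA-Ser-GCT 51b: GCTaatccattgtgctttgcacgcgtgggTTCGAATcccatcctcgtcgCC
tRNA-Ser-GCT 43: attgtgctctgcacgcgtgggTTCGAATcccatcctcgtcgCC
tRNA-Ser-GCT 36: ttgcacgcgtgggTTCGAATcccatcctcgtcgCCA
tRNA-Ser-GCT 34: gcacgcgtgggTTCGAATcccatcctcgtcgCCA
tRNA-Ser-CGA/tRNA-Ser-TGA 34: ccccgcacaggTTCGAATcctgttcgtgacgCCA
tRNA-Ser-GCT 21: tgtgctctgcacgcgtgggTT
tRNA-Ser-GCT 17: GAATcccatcctcgtcg

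Overlap of tRNA-Ser-GCT 51a with tRNA-Ser-GCT 34 over 33 nt joined the fragments into a stretch of 52 nt, from the anticodon to the last base of CCA. Positions are counted back from that base, which is 1, and positions in the genome were not analysed here. tRNA-Ser-GCT 50, 51a and 51b began exactly at the first base of the anticodon (position 52), and none of the 12 held any base before it. All 4 tRFs over 40 nt stopped short of the full CCA end. tRNA-Ser-GCT 51a, 51b and 43 ended at position 2, without the terminal A, and tRNA-Ser-GCT 50 ended at position 3, without the last 2 bases.

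The 5 tRFs of 25 to 40 nt instead held the complete CCA end and began inside the variable arm. A search of the 52-nt stretch for perfect hairpins of at least 4 pairs before the T loop found only GTGC and GCAC, separated by a loop of 3 nt. tRNA-Ser-GCT 34 began at the first base of the second strand of that hairpin (position 34). tRNA-Ser-GCT 35 began 1 base earlier and tRNA-Ser-GCT 36 a further base earlier, so all 3 started in the loop or at its border. The tRNA-Ser-CGA/tRNA-Ser-TGA pair began at the same distances from the 3' end, 34 and 35 nt, although tRNA-Ser-CGA/tRNA-Ser-TGA 34 and tRNA-Ser-GCT 34 shared only 23 of their 34 bases.

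The 3 tRFs under 25 nt were of another kind again. tRNA-Ser-GCT 17 began inside the T loop at position 20 and ended at position 4, the base before CCA, and tRNA-Ser-GCT 16 was 1 base shorter at its 3' end. tRNA-Ser-GCT 21 was internal. It spanned the whole variable arm hairpin, from position 42 to 22, and ended 2 bases into the T loop. A single base therefore separated its end from the start of the other short tRFs. TTCGAAT, searched for in the printed strand, stood whole in 9 of the 12 serine tRFs and in 26 of all 192 (13.5%).

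The class limits of 25 and 40 nt cut through no cluster of lengths here, since the members nearest to them had 21 and 34 nt at the lower limit and 36 and 43 nt at the upper. Contained sequences were counted apart. Although 8 of the 12 lay within another serine tRF, a contained one could have the lower count, as tRNA-Ser-GCT 17 had beside tRNA-Ser-GCT 34 in every library.

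**Figure D1:**
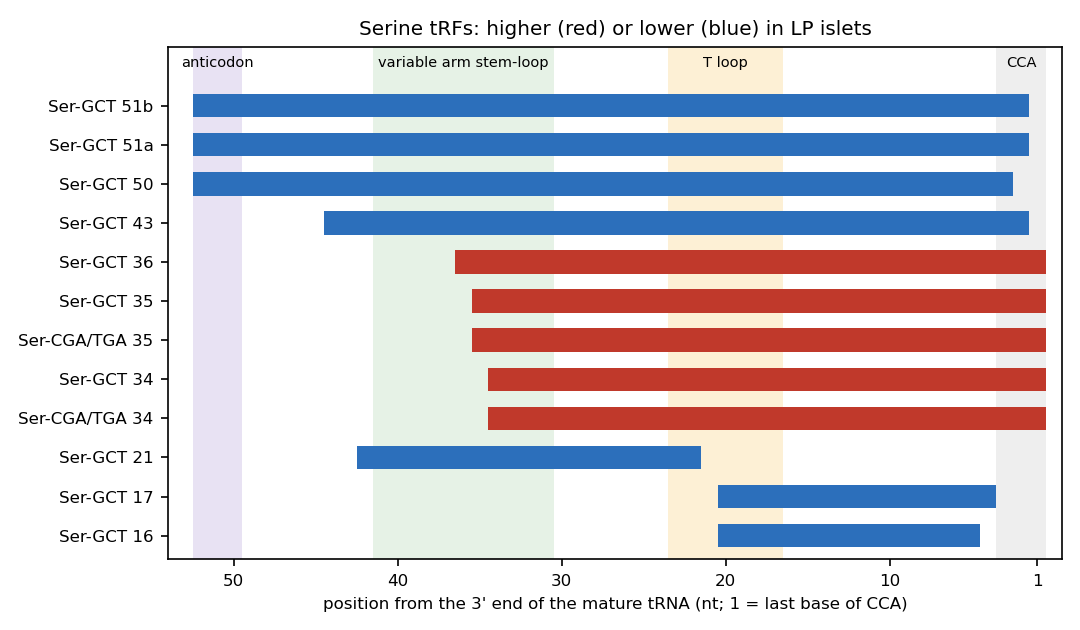
Extent of the 12 serine tRFs along the 3' part of the tRNA, in nt from the last base of CCA (position 1), with the 7 tRFs lower in LP in blue and the 5 higher in LP in red. The shaded bands mark the anticodon and the variable arm hairpin of tRNA-Ser-GCT, the T loop and CCA. The red bars begin at positions 34 to 36 and reach the end of CCA, whereas no blue bar does.

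Levels are normalized read counts, that is, read counts divided by the size factor of each library. They sum reads of exactly one sequence and need no scaling by length. The libraries held 26166 to 34775 counts of listed tRFs in CD and 12556 to 40166 in LP, of which serine tRFs took 526 to 2208 and 710 to 2128. Size factors ran from 0.625 in CD 1 to 1.80 in LP 4. Under edgeR's quasi-likelihood test all 12 serine tRFs passed the filter on low counts, and all passed 2-fold and an adjusted p of 0.05 over the table, 5 higher and 7 lower in LP. tRNA-Ser-GCT 16, 17, 21, 43 and 51b passed that filter through CD, the group where they were high. tRNA-Ser-GCT 36 and the tRNA-Ser-CGA/tRNA-Ser-TGA pair passed it through LP, where they in turn were high. In LP, tRNA-Ser-GCT 17 and 43 had at most 8 and 9 counts. Over all tested tRFs, 41.4% were called higher and 56.4% lower, so passing says nothing particular about the serine tRFs. These are 75 and 102 of 181 tRFs, and edgeR with libraries scaled by TMM over the table called 76 and 71 of 183. DESeq2, run on all 192 without that filter, called 76 and 112 with the authors' size factors, and 76 and 61 with size factors from the table. CD and LP levels did not overlap for 9 of the 12, against 76.6% of all listed tRFs.

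The long fragments that begin at the anticodon held most of the serine counts in CD 1 and CD 2 and a smaller share in each LP library. tRNA-Ser-GCT 50 stood at 1900, 560, 104, 57.2 and 221 normalized read counts in CD 1 to CD 5, and at 15.1, 24.9, 44.0 and 106 in LP 1 to LP 4. CD 1 was the highest library by far, CD 4 and CD 3 were the lowest of the CD group, and LP 4 lay above both, so the groups overlapped. The CD mean was 568 ± 770 (SD, n = 5) and the LP mean 47.4 ± 40.7 (SD, n = 4), a log2 fold change of -3.56 ± 0.97 (SE, edgeR adjusted p = 0.00473). Without CD 1 it was -2.29, and without LP 4 -4.32.

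tRNA-Ser-GCT 51a, which is 1 base longer at the 3' end, followed it closely. Its levels were 1301, 415, 124, 154 and 181 in CD 1 to CD 5 and 13.7, 30.9, 85.3 and 84.0 in LP 1 to LP 4. Each LP library lay below each CD library. The log2 fold change was -3.00 ± 0.79 (SE, edgeR adjusted p = 0.00434), and it was -2.01 without CD 1.

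The ratio of counts of tRNA-Ser-GCT 50 to 51a, that is, of fragments ending with 1 base of CCA to those ending with 2, does not depend on the scaling of libraries. It was 1.46, 1.35, 0.839, 0.371 and 1.22 in CD 1 to CD 5 and 1.10, 0.806, 0.516 and 1.26 in LP 1 to LP 4. These ranges overlapped almost entirely. The means were 1.05 ± 0.446 in CD and 0.920 ± 0.328 in LP, closer together than the spread within either group.

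tRNA-Ser-GCT 51b differs from 51a by C17T, counted from 1 at the 5' end of 51a, in the middle of the variable arm loop. Its counts were 51, 42, 23, 24 and 18 in CD 1 to CD 5 and 3, 4, 19 and 15 in LP 1 to LP 4, so it was the rarer form in all 9 libraries. The log2 fold change was -2.28 ± 0.57 (SE, edgeR adjusted p = 0.00365) and the levels did not overlap. RefSeq lists 8 rat genes for tRNA-Ser with this anticodon (GRCr8). Whether the base comes from a gene copy, an editing or modification event or a read error was not tested. tRNA-Ser-GCT 36 began exactly at this base and carried the same C17T, while tRNA-Ser-GCT 34 and 35 began after it and could come from either form.

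tRNA-Ser-GCT 43, which begins between the anticodon and the variable arm hairpin, was a minor fragment with another order of libraries. It had 12, 10, 35, 38 and 10 counts in CD 1 to CD 5 and 1, 1, 8 and 9 in LP 1 to LP 4. CD 3 and CD 4, the lowest CD libraries for tRNA-Ser-GCT 50, were the highest for tRNA-Ser-GCT 43. There were accordingly 98.9 counts of tRNA-Ser-GCT 50 for each of tRNA-Ser-GCT 43 in CD 1 and 50.9 in CD 2, but 21.4 in CD 5, 3.57 in CD 3 and 1.39 in CD 4. The log2 fold change was -2.61 ± 0.56 (SE, edgeR adjusted p = 0.00243).

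Among the fragments with a complete CCA end, tRNA-Ser-GCT 34 was the most abundant and was higher in LP. It stood at 97.6, 91.4, 106, 113 and 271 normalized read counts in CD 1 to CD 5, and at 667, 421, 189 and 601 in LP 1 to LP 4. CD 5 stood apart from the other CD libraries, and LP 3 lay below CD 5, so the groups overlapped there. From 136 ± 75.8 (SD, n = 5) in CD the mean was 469 ± 214 (SD, n = 4) in LP, with a log2 fold change of 1.79 ± 0.47 (SE, edgeR adjusted p = 0.00442). tRNA-Ser-GCT 35 was far less variable. It lay between 51.7 and 65.1 in the 5 CD libraries and at 211, 127, 115 and 136 in LP 1 to LP 4. The groups were well separated, with the smallest fold of the 12 (log2 fold change 1.36 ± 0.36, SE, edgeR adjusted p = 0.00442). The highest CD library exceeded the lowest by 1.26-fold for this fragment, against 33.2-fold for tRNA-Ser-GCT 50.

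tRNA-Ser-GCT 36, the fragment with C17T, had 3, 3, 8, 9 and 25 counts in CD 1 to CD 5 and 30, 26, 88 and 65 in LP 1 to LP 4. Its level in CD 5 just missed that in LP 2, at 25.8 and 25.9 normalized read counts. The log2 fold change was 1.996 ± 0.54 (SE, edgeR adjusted p = 0.00452), and 2.70 without CD 5. tRNA-Ser-GCT 36 and 51b share the same variant base, one starting at it and the other holding it internally. Counts of tRNA-Ser-GCT 36 per count of 51b ran from 0.0588 in CD 1 to 1.39 in CD 5, and from 4.33 in LP 4 to 10.0 in LP 1. The groups did not overlap in this ratio, whose direction was fixed by the selection of one tRF as higher and the other as lower.

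The pair shared by tRNA-Ser-CGA and tRNA-Ser-TGA went the same way as its tRNA-Ser-GCT counterparts. tRNA-Ser-CGA/tRNA-Ser-TGA 34 had 3, 15, 11, 15 and 20 counts in CD 1 to CD 5 and 50, 28, 42 and 169 in LP 1 to LP 4. tRNA-Ser-CGA/tRNA-Ser-TGA 35 had 8, 7, 5, 11 and 19 counts in CD and 19, 34, 32 and 170 in LP. LP 4 was the highest library for both. Neither overlapped between the groups, and the log2 fold changes were 2.004 ± 0.51 and 1.994 ± 0.54 (SE, edgeR adjusted p = 0.00399 and 0.00473). Without LP 4 the second was 1.28. The sequences fit hosts with either anticodon, so the reads cannot be divided between them. No fragment of tRNA-Ser-AGA, the serine tRNA with the most RefSeq genes (52), was among the listed tRFs.

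**Figure D2:**
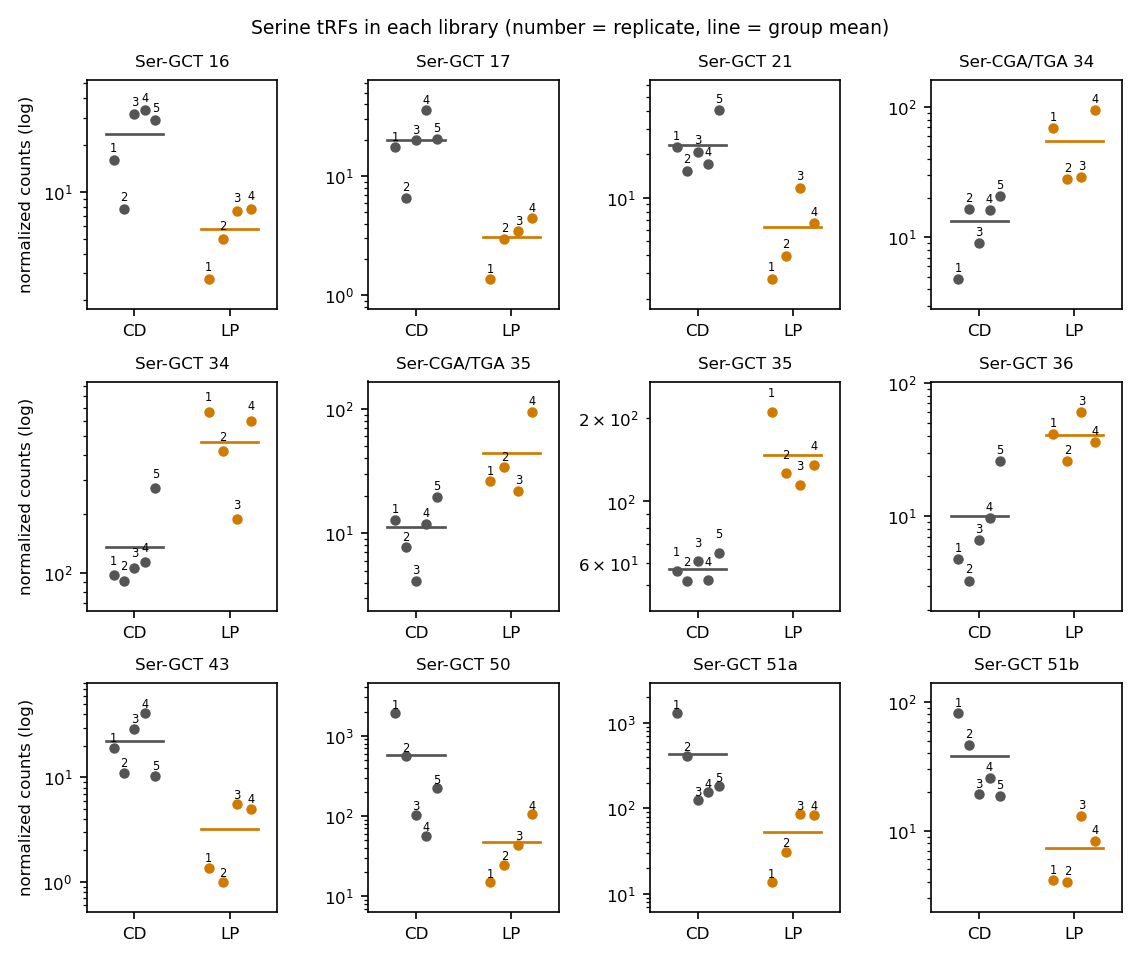
Normalized read counts (log axis) of the 12 serine tRFs in each library, with CD in grey, LP in orange, replicate numbers beside the points and group means as lines. tRNA-Ser-GCT 50 spans 57.2 to 1900 in CD, whereas tRNA-Ser-GCT 35 stays between 51.7 and 65.1 there and between 115 and 211 in LP.

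The short fragments were rare and lower in LP. tRNA-Ser-GCT 17 had 11, 6, 24, 33 and 20 counts in CD 1 to CD 5 and 1, 3, 5 and 8 in LP 1 to LP 4, with a log2 fold change of -2.58 ± 0.49 (SE, edgeR adjusted p = 0.00178). tRNA-Ser-GCT 16 had 7 to 38 counts in CD and 2 to 14 in LP. Its lowest CD level (CD 2, 7.71 normalized read counts) and its highest LP level (LP 4, 7.79) crossed. The internal tRNA-Ser-GCT 21 had 14, 14, 25, 16 and 39 counts in CD and 2, 4, 17 and 12 in LP, and did not overlap once scaled. The log2 fold changes of tRNA-Ser-GCT 16 and 21 were -1.95 ± 0.48 and -1.80 ± 0.46 (SE, edgeR adjusted p = 0.00344 and 0.00399). With DESeq2 size factors estimated over the listed tRFs, the fall of tRNA-Ser-GCT 21 was 1.12 on the log2 scale and no longer passed (DESeq2 adjusted p = 0.0615). With 1 to 9 counts in LP, tRNA-Ser-GCT 17 and 43 are known only coarsely in that group.

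Within a library, the makeup of the serine tRFs differed between the groups, in a direction that the selection had fixed. Every serine tRF of 25 to 40 nt was higher and every other one lower, in a set selected on these same libraries. Those of 25 to 40 nt gave 4.98% (95% Wilson interval 4.15 to 5.97) of the serine counts in CD 1, 13.8% in CD 2, 34.9% in CD 3, 35.7% in CD 4 and 43.6% (40.3 to 46.8) in CD 5. In LP 1 to LP 4 they gave 96.1% (94.5 to 97.3), 89.7%, 70.9% (67.7 to 73.8) and 81.3%. Whether duplicate reads were collapsed by molecular tags is not stated, and the intervals cover counting error only. The lowest LP library lay above the highest CD library, a gap that is not independent of the selection. Fragments over 40 nt made up 93.4, 83.8, 51.6, 49.0 and 46.7% in CD 1 to CD 5 and 3.25, 8.59, 25.3 and 17.2% in LP 1 to LP 4.

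Fragments over 40 nt outnumbered those of 25 to 40 nt in every CD library, most of all in CD 1 and CD 2. The ratio of fragments of 25 to 40 nt to longer ones was 0.0533 in CD 1, 0.165 in CD 2 and 0.678 to 0.933 in the 3 others. In LP that ratio was 29.6, 10.4, 2.80 and 4.74 in LP 1 to LP 4. LP 1, at the other extreme, had the fewest counts of listed tRFs of all libraries (12556), and CD 1 the lowest size factor. Any part of library quality or depth in the makeup was not tested. The log2 ratio of counts of 25 to 40 nt to those over 40 nt, which no scaling of libraries can alter, averaged -1.59 ± 1.77 (SD, n = 5) in CD and 3.00 ± 1.48 (SD, n = 4) in LP. The difference of 4.59 was 3.93 without CD 1. It was given no test, since its direction was fixed when the tRFs were chosen.

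**Figure D3:**
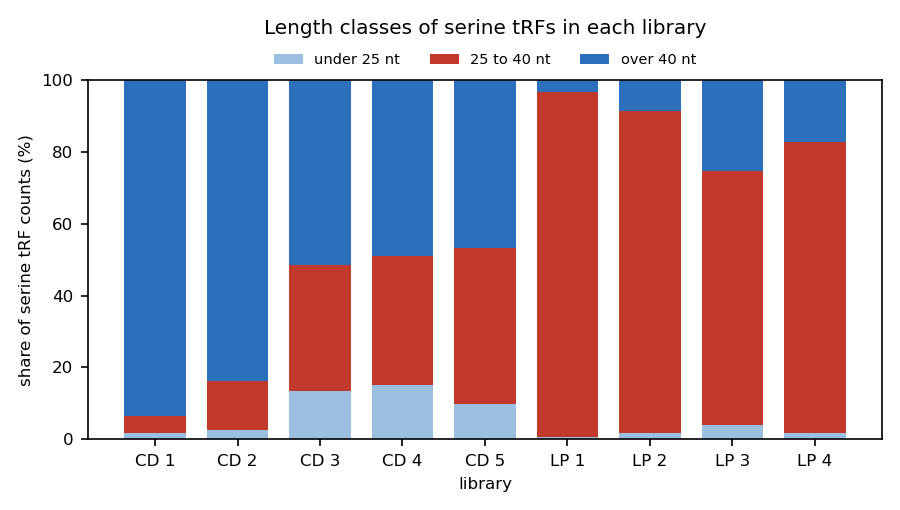
Share of serine tRF counts (%) in each library that came from fragments under 25 nt (light blue), of 25 to 40 nt (red) and over 40 nt (dark blue). Fragments of 25 to 40 nt take 4.98 to 43.6% in CD and 70.9 to 96.1% in LP.

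As summed levels, the serine tRFs over 40 nt came to 276 to 3301 normalized read counts in CD, with a median of 431, and to 34.3 to 203 in LP, with a median of 104. Those of 25 to 40 nt came to 171 to 402 in CD, with a median of 187, and to 415 to 1014 in LP, with a median of 798. The short class was small in both groups, at 29.7 to 89.9 and 6.85 to 22.7. Against these opposite shifts, all 12 together gave 535 to 3533 in CD and 586 to 1184 in LP, with medians of 923 and 881, so the listed serine fragments as a whole overlapped broadly. On the ratio of means, the log2 values were -3.25 over 40 nt, 1.73 for 25 to 40 nt and -2.15 under 25 nt. Without CD 1 the first was -2.18. Scaling the libraries by TMM over the table, which raised the median log2 fold change of all tRFs from -1.49 to -0.79, gave -2.51, 2.36 and -1.57. Size factors from the table gave -2.32, 2.53 and -1.48.

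The other nuclear tRFs of the table showed the same sorting by length. Of those over 40 nt 21 of 22 were lower in LP, of those of 25 to 40 nt 59 of 75 were higher, and of those under 25 nt 60 of 69 were lower. All 5 serine tRFs of 25 to 40 nt ended in CCA. Only 16 of the 75 others did, 11 of them higher and 5 lower. The sorting was therefore not particular to serine tRNAs. The median log2 fold changes of the tested tRFs were -1.998, 1.81 and -1.64 in these classes, beside -2.81, 1.99 and -1.95 for the serine tRFs. tRNA-Ser-GCT 50, 51a and 43 had the lowest log2 fold changes of the tested tRFs over 40 nt, the first and second with the part that CD 1 has in them.

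The 3' ends of serine tRFs differed in kind from those of many others. No serine tRF that was lower ended in CCA, while 46 of the 60 lower nuclear tRFs under 25 nt of other amino acids did, as did 9 of the 21 over 40 nt. Among the other nuclear tRFs over 40 nt, 6 ended 1 or 2 bases short of a CCA end known from the table, and all 6 were lower. Of the 7 of 25 to 40 nt with such an end, all were higher. Ends short of CCA were thus found in both directions outside the serine tRNAs. This was not tested as a difference between families. Leucine tRNAs share the long variable arm. They gave 17 nuclear tRFs under 25 nt and 1 over 40 nt, all lower, and none of 25 to 40 nt, the class in which all 5 higher serine tRFs lay. Of the 17 under 25 nt, 10 ended in CCA and 7, like the short serine tRFs, did not. Alanine tRNAs had 23 of 23 short tRFs lower and 6 of 6 of 25 to 40 nt higher. Of the aspartate tRFs, 14 of 17 of 25 to 40 nt were higher and 3 of 3 over 40 nt lower.

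**Figure D4:**
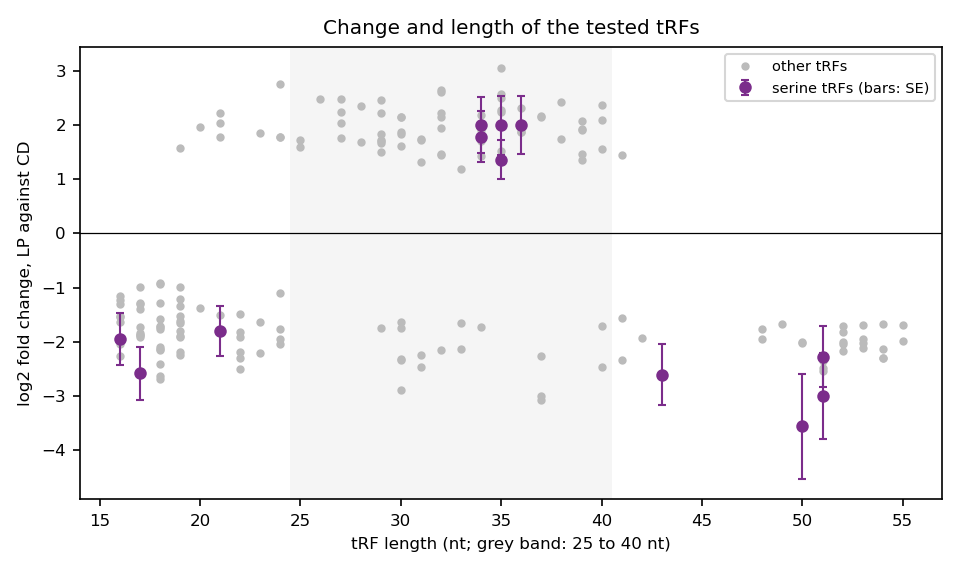
Log2 fold change between LP and CD against length for the 181 tested tRFs, with the 12 serine tRFs in purple and their SE as bars. The serine tRFs of 34 to 36 nt lie between 1.36 and 2.004, and those of other lengths between -3.56 and -1.80, on the same sides of 0 as most other tRFs of their length.

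Among libraries of the same diet, some tRNA-Ser-GCT fragments varied together and others did not. As deviations from the group means of log2(normalized read count + 1) over the 9 libraries, tRNA-Ser-GCT 50 and 51a had a Pearson r of 0.92, tRNA-Ser-GCT 51a and 51b 0.93, and tRNA-Ser-GCT 16 and 17 0.93. tRNA-Ser-GCT 34 and 35, whose starts differ, had 0.70. Fragments of different hosts that start at the same position went both ways. tRNA-Ser-GCT 34 and tRNA-Ser-CGA/tRNA-Ser-TGA 34 had 0.66, while tRNA-Ser-GCT 35 and tRNA-Ser-CGA/tRNA-Ser-TGA 35 had -0.028. Between tRNA-Ser-GCT 50 and 43 it was -0.11, whereas tRNA-Ser-GCT 43 had 0.65 with tRNA-Ser-GCT 16 and 0.68 with tRNA-Ser-GCT 17. tRNA-Ser-GCT 34 had -0.17 with tRNA-Ser-GCT 50 and -0.45 with tRNA-Ser-GCT 51a. These values describe 9 libraries that share their scaling, and they are given without a test.

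Outside the serine tRNAs, the tRFs whose libraries deviated most like those of tRNA-Ser-GCT 50 were mtRNA-Gly-TCC 51 (r = 0.95), tRNA-Ala-AGC 19 (r = 0.94) and tRNA-Asp-GTC 52 (r = 0.92). For tRNA-Ser-GCT 34 they were tRNA-Glu-CTC/tRNA-Glu-TTC 32 (r = 0.99), tRNA-Ala-AGC 38 (r = 0.95) and tRNA-Asp-GTC 30a (r = 0.90). The mean of tRNA-Ser-GCT 21 over the 9 libraries (15.69 normalized read counts) barely passed that of tRNA-Ser-GCT 16 (15.64), and it had 2 to 17 counts in LP. For tRNA-Ser-GCT 21 all 3 came from leucine tRNAs, namely tRNA-Leu-CAA/tRNA-Leu-CAG 19b (r = 0.85), tRNA-Leu-CAA 16 (r = 0.76) and tRNA-Leu-CAA/tRNA-Leu-CAG 18c (r = 0.75). All these tRFs were picked as the highest r among the other listed tRFs, a search that by itself favours high values. A link between families was not tested.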

How the data were processed

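Small RNA libraries of islets from 5 CD and 4 LP rats were compared. The authors annotated tRFs against nuclear and mitochondrial tRNA collections, required at least 2 reads in individual samples and used DESeq2. The deposited read counts are unscaled. Aligner and genome build: not given in the sources used here. Score columns, also deposited and headed as normalized counts, hold DESeq2's variance-stabilised values on a log2 scale, and a fit of that transformation (largest residual 5.7e-05) returned the authors' size factors, which scaled the libraries. The authors' own fold change, adjusted p-value and direction columns were not used. Rows were collapsed by sequence. Counts were tested with edgeR 4.0.16 (R 4.3.3), with a minimum count of 10, Benjamini-Hochberg adjustment over the 181 tRFs tested and a threshold of 0.05 and 2-fold. The SE was the log2 fold change divided by the root of its F value. The fit was tested on simulated data. DESeq2 1.42.0, TMM, no filter, left-out libraries, a replicate block and other class limits were tried as alternatives. All serine tRFs are named, with the 3 most alike other tRFs for the most abundant one of each class. Members, lists and rules were chosen with earlier results of these data known. p-values were computed from the spread between these rats, over tRFs already selected on the same rats. They therefore do not measure the evidence for a change.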

Additional observations from a re-analysis of the deposited data

Results flagged for a closer look

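A library standing far from the rest of its group on a log scale was looked for over the 12 serine tRFs, the 3 class sums and the ratio of classes. The search covered 32 sets and found 2, where chance gives about 1.6. CD 5 was the highest CD library for tRNA-Ser-GCT 34, with a level of 271 where the others had 91.4 to 113, and its distance to the next was 0.802 of the range. It was also the highest for the sum of serine tRFs of 25 to 40 nt, at 402 against 171 to 203 (0.798 of the range), a sum in which tRNA-Ser-GCT 34 weighs most. CD 5 was likewise the highest CD library for each of the other members of that class.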

How the results depend on the processing

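The alternatives were planned, and no serine tRF changed direction under any of them. Of 159 values of single members under an alternative, 158 kept their call, the exception being tRNA-Ser-GCT 21 when DESeq2 took its size factors from the listed tRFs (log2 fold change -1.12). Fits in which the filter on low counts removed a member gave no value and are not among the 159, which concerns 3 members. The tRFs had been selected on these same samples, so kept calls and directions are not independent evidence of a change. Leaving out each library in turn gave 5 serine tRFs higher and 4 to 7 lower, with 4 without CD 3, because the filter on low counts then removed up to 3 of tRNA-Ser-GCT 16, 17 and 43. Of all tRFs, edgeR called 102 of 181 lower as reported. With a library left out, it called 75 higher and 94 to 110 lower of 173 to 187 tested. DESeq2 called 112 of 192 lower with the authors' size factors and 61 of 192 with those from the table. At 4-fold 1 serine tRF was higher and 5 lower, beside 31 and 46 of all 181 tested tRFs. The summed serine tRFs of 25 to 40 nt moved by more than the spread between replicates under TMM (2.36) and size factors from the table (2.53), against 1.73 as reported, all as log2 ratios. Equal replicate numbers do not mark shared animals, and the deviations of CD 1 and LP 1 had a correlation of -0.40. With the number as a replicate block, 5 serine tRFs were higher and 7 lower, beside 75 and 101 of all 181 tested. Libraries of 12556 to 40166 listed counts leave members with 1 to 9 counts in LP poorly measured.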
